A study of Stropharia rugosoannulata with 3 samples.

Results

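The MnP array on contig 8 is a group of 6 manganese peroxidase (MnP) genes that lie close together in the assembly of *S. rugosoannulata*, the wine-cap mushroom. The members are SRUG_07844, SRUG_07846, SRUG_07847, SRUG_07849, SRUG_07850 and SRUG_07851, models 791, 793, 794, 796, 797 and 798 of contig 8. They were chosen by the family the study assigned to them and by their position. Their expression was not a criterion, although earlier results of these data were known at the choice. They are 6 of 11750 gene models in all, 6 of the 864 models on contig 8 and 6 of the 17 MnP genes. SRUG_07845 (model 792) and SRUG_07848 (model 795) lie between them and were not assigned to the MnP genes. The numbering of the models follows their listing on the contig. Distances in bases and strands were not used here.

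The deposited RNA-seq values come from mycelia grown on potato dextrose agar (PDA) at 25 °C. There are 3 libraries of this condition, called libraries 1, 2 and 3. The labels give the strain as Heinong No.1, a commercial cultivar, while the sample titles name S68, the monokaryon derived from it. The paper names the cultivar for its transcriptome, so which of them was sequenced is not resolved here. All libraries share these labels, without a treated group or a control. The sources used here do not say whether they came from separate cultures, so the spread between them may be technical. Totals of 31831513, 30516180 and 29678333 counts were assigned to gene models in libraries 1, 2 and 3, and edgeR's biological coefficient of variation (how far a typical gene differs between libraries once counting noise is removed) was 0.304, and 0.238 without library 2.

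Manganese peroxidases are secreted heme enzymes of wood- and litter-decaying basidiomycetes. They use hydrogen peroxide to oxidize divalent manganese, and the trivalent manganese that results diffuses away as a chelate and oxidizes phenolic structures in lignin as well as many aromatic pollutants. The genes often occur in several copies, some of them side by side. The paper classed every MnP of this species as atypical, with fewer acidic residues at the manganese-oxidizing site than the usual enzyme. PDA is not a lignin medium, and the levels below were measured without added lignin.

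All 6 copies of the array had reads, and 5 of the 6 had a mean of at least 1 FPKM (fragments scaled to the length of the gene model and to the library), the level taken here as expressed. Of all gene models, 83.3% reached the same level, so the share of expressed copies was that of the genome as a whole. SRUG_07850 had the highest mean of the array with 56.9 ± 19.5 FPKM, and SRUG_07844 the lowest with 0.692 ± 0.700 FPKM (SD, n = 3 each). The copies were thus unequal, with 3 of them between 24.0 and 27.4 FPKM and SRUG_07851 at 7.45 FPKM. With 1 condition no differential test could be made, and the values below describe levels and their spread between libraries.

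SRUG_07850 had 70.9, 34.7 and 65.0 FPKM in libraries 1, 2 and 3, from 2668, 1246 and 2283 counts. It was high in libraries 1 and 3 and low in library 2. Ranked by mean FPKM among all gene models, it was at the 73.6th percentile.

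SRUG_07849 had 20.1, 35.5 and 26.7 FPKM in libraries 1, 2 and 3, from 742, 1253 and 921 counts, with a mean of 27.4 ± 7.74 FPKM (SD, n = 3). It was highest in library 2, the library in which the neighbouring SRUG_07850 was lowest, and there both genes were at about the same level.

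SRUG_07846 had 25.96, 28.8 and 19.2 FPKM in libraries 1, 2 and 3, from 971, 1031 and 670 counts, with a mean of 24.7 ± 4.96 FPKM (SD, n = 3). It was lowest in library 3. SRUG_07847, the next model on the contig, had 6.73, 29.5 and 35.7 FPKM from 253, 1057 and 1247 counts, with a mean of 24.0 ± 15.2 FPKM (SD, n = 3). Their means were nearly equal, but SRUG_07847 was low in library 1 and highest in library 3. The exact Poisson 95% intervals of its counts cover counting error only and are approximate, as they assume that a fragment adds 2 counts, whereas some of the counts are odd and may have been computed from coverage. They were 211 to 301 in library 1, 969 to 1151 in library 2 and 1151 to 1349 in library 3, so library 1 lay apart from the others by far more than counting error. Without library 1 its mean was 32.6 FPKM.

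SRUG_07851, the last copy on the contig, had 7.88, 8.22 and 6.24 FPKM in libraries 1, 2 and 3, from 297, 296 and 220 counts. Its mean was 7.45 ± 1.06 FPKM (SD, n = 3), the smallest SD relative to the mean among the copies. SRUG_07844, the first copy, had 0.236, 1.498 and 0.342 FPKM from 9, 54 and 12 counts. It passed 1 FPKM in library 2 alone, where the Poisson interval of its count was 35.6 to 78.6, above those of library 1 (2.70 to 21.9) and library 3 (4.404 to 26.1). Without library 2 its mean was 0.289 FPKM.

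**Figure D1:**
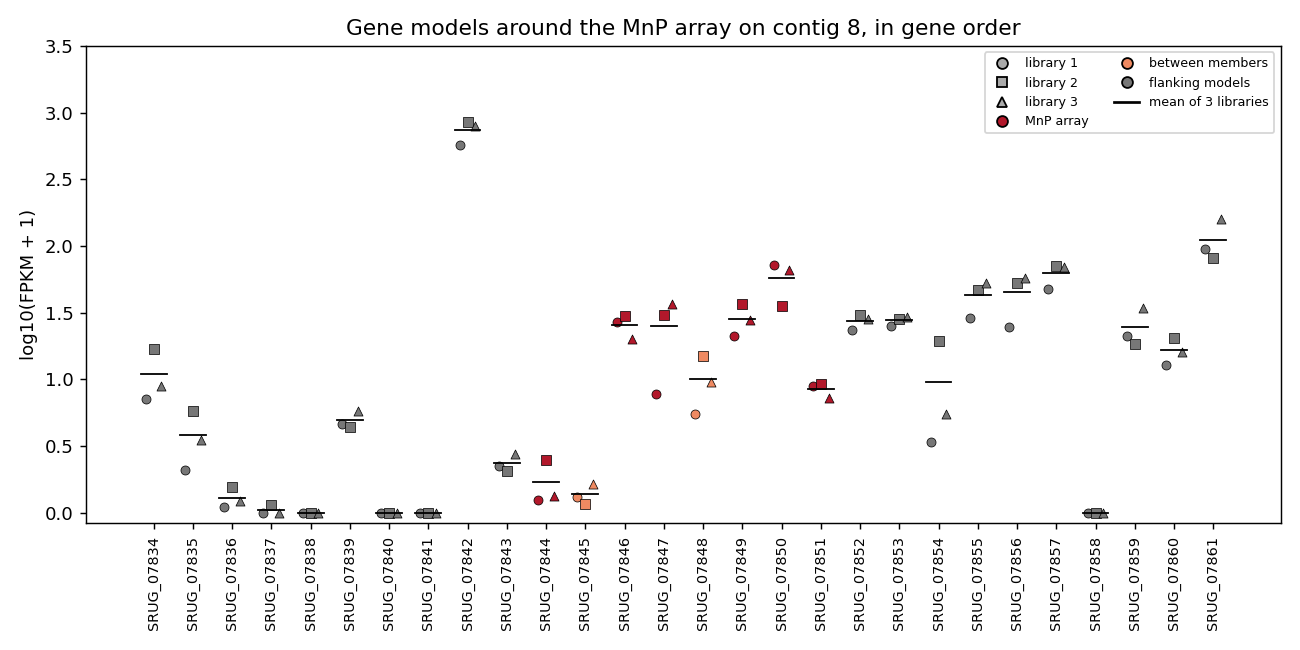
Level of each gene model, as log10(FPKM + 1), in 3 libraries of mycelia (symbols) with the mean (line), for the 6 array genes, the 2 models between them and 10 models on each side, in gene order along contig 8. SRUG_07844 sits near 0 beside models with few or no reads, whereas the other 5 array genes have means from 7.45 to 56.9 FPKM. The 2 models between the members have means of 0.369 and 9.02 FPKM. For the 10 models after the array the median of the means is 26.5 FPKM.

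Since FPKM is corrected for length, the copies can be ordered by level. Of the 15 pairs of copies, 10 had the same gene higher in every library. SRUG_07844 was below each of the other copies in 3 of 3 libraries, and SRUG_07851 was below SRUG_07846, SRUG_07849 and SRUG_07850 in 3 of 3. The log2 ratio of SRUG_07846 to SRUG_07850, on the log2(FPKM + 1) scale, was -1.13 ± 0.77 (SD, n = 3), with SRUG_07850 the higher in 3 of 3. The order of the middle copies was not resolved. The log2 ratio of SRUG_07846 to SRUG_07847 was 0.30 ± 1.36, that of SRUG_07846 to SRUG_07849 was -0.13 ± 0.43 and that of SRUG_07847 to SRUG_07849 was -0.43 ± 0.94 (SD, n = 3 each), all smaller than their spread. SRUG_07849 also exceeded SRUG_07850 in library 2, by 0.03 on the log2 scale, and the log2 ratio of SRUG_07847 to SRUG_07851 was -0.20 in library 1, where SRUG_07851 was the higher. In an exact two-sided sign-flip permutation test over the 3 libraries the smallest p possible is 0.25, which the 10 pairs with a constant direction had; adjusted over 15 pairs (Benjamini-Hochberg) this was 0.375, so this design cannot separate any pair at 0.05.

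The 6 copies had nearly the same length as the FPKM used it. The ratio of counts to FPKM, which is proportional to the length of a model within a library, ranged from 36.9 to 38.2 over the 6 copies in library 1, a coefficient of variation (CV) of 1.08%, and the CV was 0.799% and 0.773% in libraries 2 and 3. Relative to the median gene the lengths were 0.808 to 0.827. The models between them were longer, at 1.198 (SRUG_07845) and 2.69 (SRUG_07848) times the median gene. Among the other MnP genes with reads, SRUG_10902 stood apart at 0.476. The sources used here do not state how reads that match several copies were assigned. If neighbouring copies are alike in sequence, the split of reads between them is uncertain, and this was not tested.

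The sum over the array was 132, 138 and 153 FPKM in libraries 1, 2 and 3, a mean of 141 ± 10.95 FPKM (SD, n = 3), from 4940, 4937 and 5353 counts. SRUG_07850 held 53.8% of this sum in library 1, 25.1% in library 2 and 42.4% in library 3. SRUG_07847 held 5.11%, 21.4% and 23.3%, and SRUG_07849 held 15.2%, 25.7% and 17.5%. The share of SRUG_07851 stayed between 4.08% and 5.98%. Where SRUG_07850 was low, in library 2, the other 5 copies together were at 104 FPKM, against 60.9 in library 1 and 88.1 in library 3. In CPM (counts scaled to library size, here with TMM normalization, which puts the libraries on a common scale, and without length correction), the sum had an SD of 9.97 around a mean of 166, whereas the SD would be 32.4 if the copies had varied with no covariance between them. The CV of the sum was 6.02% in CPM, and a sum tends to vary less than its parts. In FPKM the gap was narrower, with an SD of 10.95 against 26.4 for no covariance, and a CV of 7.76%. Library 3 was the highest on both scales, but library 2 was the lowest in CPM and library 1 the lowest in FPKM. These are descriptions over 3 libraries, without a test.

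**Figure D2:**
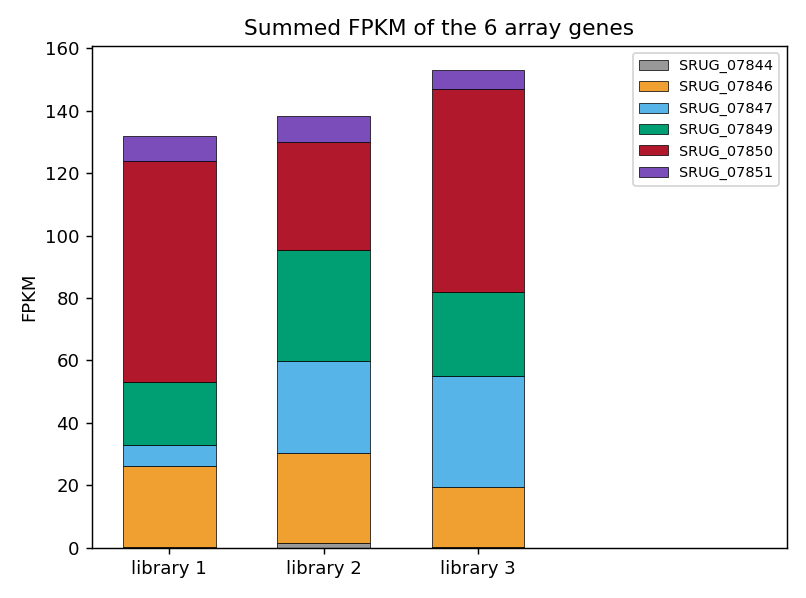
FPKM of the 6 array genes stacked for each of 3 libraries of mycelia. The totals of 132, 138 and 153 FPKM lie close together, while SRUG_07850 (red) takes 53.8%, 25.1% and 42.4% of them.

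To see which copies moved together, the libraries were compared in TMM-normalized CPM, since FPKM placed the median gene at -0.10, 0.05 and 0.03 on the log2 scale in libraries 1, 2 and 3, relative to the mean of the libraries, and TMM placed it at -0.01 in each. The 5 copies with a mean count of at least 50 form 10 pairs. Only SRUG_07846 and SRUG_07851 had their libraries in the same order, 1 pair of 10, against 18.1% of all pairs of genes with such counts. The profiles of this pair differed by a root mean square of 0.08 on the log2 scale. Of 9574 genes, 1.201% were nearer to SRUG_07846 than SRUG_07851 was, and 2.78% were nearer to SRUG_07851 than SRUG_07846 was. The pair was picked out as the closest of the 10, which by itself favours low shares, so these shares do not show that the 2 genes moved together. Both were lower in library 3, at 0.675 and 0.747 times the mean of the other libraries. In CPM both were slightly higher in library 1 than in library 2, and in FPKM slightly lower. These 2 genes are not neighbours, as models 793 and 798 are the first and the last of the expressed copies.

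The 3 pairs of copies with consecutive model numbers among these 5 were less alike. SRUG_07846 and SRUG_07847 differed by 1.18, SRUG_07849 and SRUG_07850 by 0.78, and SRUG_07850 and SRUG_07851 by 0.57 (root mean square on the log2 scale). The most distant pair of all 10 was SRUG_07847 and SRUG_07850, at 1.36. SRUG_07848, which lies between SRUG_07847 and SRUG_07849, was nearer to SRUG_07849 (0.34) than to SRUG_07847 (0.60), and 9.86% of genes were nearer to it than SRUG_07849 was. The nearest of the 10 pairs were thus copies that are not adjacent. A profile over 3 libraries has few degrees of freedom, so none of these distances was tested.

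**Figure D3:**
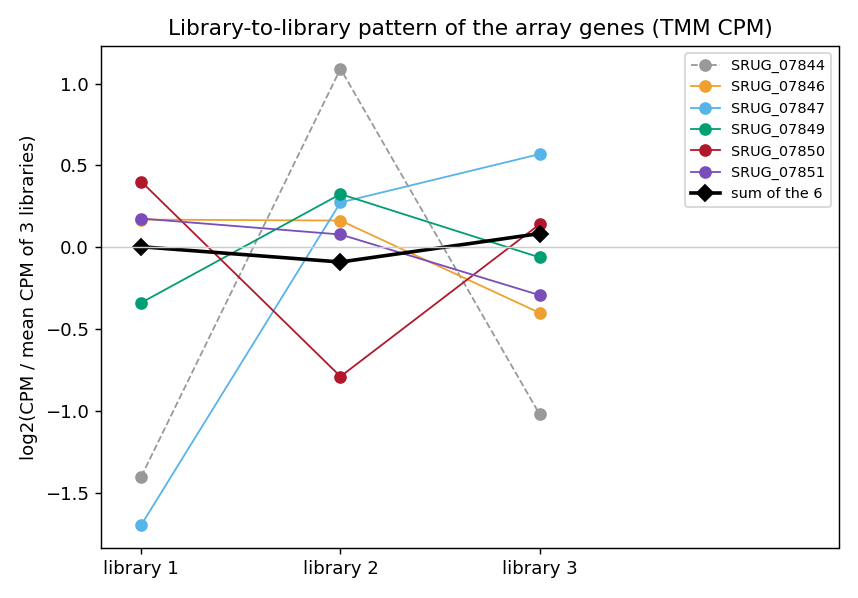
Log2 of the TMM-normalized CPM in each library over the mean of the 3 libraries, for each array gene and for their sum; lines join the values of a gene, and the libraries have no order. SRUG_07846 and SRUG_07851 are the closest of the 10 pairs compared. SRUG_07850 is lowest in library 2 and SRUG_07847 is lowest in library 1. SRUG_07844 (dashed, mean count below 50) is highest in library 2, and the sum stays near 0.

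In size, 2 of the 5 copies lay at least 2-fold from the mean of the other libraries in some library, against 13.4% of the 9574 genes tested. Around them, 4 of the 13 flanking models with such counts and SRUG_07848 did so too. SRUG_07847 was at 0.229 times in library 1, where 5.01% of genes were at least 2-fold lower, and SRUG_07850 was at 0.477 times in library 2, where 4.36% were. With FPKM in place of CPM, SRUG_07850 stayed within 2-fold and the count was 1 of 5. SRUG_07844, left out of this count for its low reads, was 4.89 times the mean of the others in library 2, from 54 counts. None of the 5 copies was at least 2-fold higher in library 1 or library 3, where 2.34% and 1.93% of genes were, none of the 5 was so in library 2, where 5.22% of genes were, and none was at least 2-fold lower in library 3, where 2.57% of genes were.

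The CV between libraries was 61.5% for SRUG_07847 and 38.1% for SRUG_07850, at the 96.5th and 90.9th percentiles of genes with a mean count within 2-fold of their own. SRUG_07849, SRUG_07846 and SRUG_07851 had 23.4%, 21.1% and 16.4%, at the 66.2th, 58.7th and 26.5th percentiles. The median CV was 23.4% over the 5 copies, 25.0% over the 13 flanking models with such counts and 19.2% over all genes with such counts. SRUG_07844, with a mean count below 50, had a CV of 97.97% and was not ranked.

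The neighbourhood was uneven. Of the 10 models listed before the array (SRUG_07834 to SRUG_07843), 5 had a mean of at least 1 FPKM and 3 had no count. A count of 0 was taken to allow up to 3 fragments, or 6 counts, under the same assumption (a one-sided limit, unlike the two-sided intervals above). Scaled to the total counts of each library, this limit equals 0.188, 0.197 and 0.202 CPM in libraries 1, 2 and 3. These limits were not TMM-normalized, unlike the other CPM values given here, and they cover counting error only. The median of the means of the 10 models before the array was 0.819 FPKM. Of the 10 models after it (SRUG_07852 to SRUG_07861), 9 had a mean of at least 1 FPKM, 1 had no count, and the median was 26.5 FPKM. The array had a median of 24.3 FPKM, near that of the models after it, and all gene models had 23.9. On contig 8 as a whole, 90.4% of the models reached 1 FPKM, with a median of 30.7. SRUG_07844 lay next to these weakly expressed models, and SRUG_07845, which separates it from SRUG_07846, had 0.306, 0.152 and 0.649 FPKM from 17, 8 and 33 counts.

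The models next to the array were SRUG_07843, with 1.25, 1.04 and 1.76 FPKM in libraries 1, 2 and 3, and SRUG_07852, with 22.4, 29.4 and 27.3 FPKM. SRUG_07842 had the highest mean of the 28 models examined, 736 ± 148 FPKM (SD, n = 3), although it lies next to SRUG_07841, which had no count, and 2 models before the array. No copy of the array came near it. The highest model after the array was SRUG_07861 with 110 ± 41.2 FPKM (SD, n = 3), and SRUG_07850 ranked 4 in the window. The models without a count were SRUG_07838, SRUG_07840 and SRUG_07841 before the array and SRUG_07858 after it. The files pair these models with no function, so none is given here.

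SRUG_07848, between SRUG_07847 and SRUG_07849, had 4.48, 14.0 and 8.60 FPKM in libraries 1, 2 and 3, from 552, 1645 and 988 counts. It was lowest in library 1 and highest in library 2, as SRUG_07849 was, and in library 2 it was 2.04 times the mean of the others. In FPKM it was below SRUG_07846, SRUG_07847, SRUG_07849 and SRUG_07850 in every library. In library 2 its counts exceeded those of each of these copies, and the lower FPKM there came from the longer model. In libraries 1 and 3 it also had fewer counts than some of them, such as SRUG_07850 with 2668 and 2283.

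Over the 20 flanking models together, the median log2(FPKM + 1) of the array exceeded theirs by 1.26, 0.77 and 1.72 in libraries 1, 2 and 3, a mean of 1.25 ± 0.47 (SD, n = 3). The size of this difference came from the models before the array. Against those alone it was 3.65 ± 0.46, and against the models after the array it was -0.40 ± 0.42 (SD, n = 3 each), which is smaller than its spread. With 5 models on each side the difference from the flanks was 0.54, and in CPM, which is not corrected for length, it was 0.70.

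Within the MnP family, the array held most of the expression. Its 6 genes made up 66.2%, 72.6% and 68.2% of the summed FPKM of the 17 MnP genes in libraries 1, 2 and 3, a mean of 69.02 ± 3.27% (SD, n = 3), with sums of 132, 138 and 153 FPKM in the array and of 67.3, 52.2 and 71.3 FPKM over the 11 other genes. Of the array, 5 of 6 had a mean of at least 1 FPKM, and of the other MnP genes 4 of 11, beside 83.3% of all gene models. The medians of the means were 24.3 FPKM in the array and 0.282 FPKM over the others. These are counts over a gene family of small size, and no test was run on them.

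By mean FPKM, SRUG_07850, SRUG_07849, SRUG_07846 and SRUG_07847 ranked 1, 3, 4 and 5 among the 17, with SRUG_03872 of contig 4 at rank 2 (32.8, 12.3 and 41.8 FPKM in libraries 1, 2 and 3). The ranks were not steady, as SRUG_07849 ranked 1 in library 2 and 5 in library 1, and SRUG_07847 ranked 8 in library 1 and 3 in libraries 2 and 3. SRUG_07851 followed SRUG_03871 and SRUG_10902 at rank 8, ahead of SRUG_08480. SRUG_07844 ranked 10 in every library, just above SRUG_09779, SRUG_09293, SRUG_03862, SRUG_09835 and SRUG_04745, which were all at most at 0.514 FPKM on average, while SRUG_09291 and SRUG_09292 had no count.

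**Figure D4:**
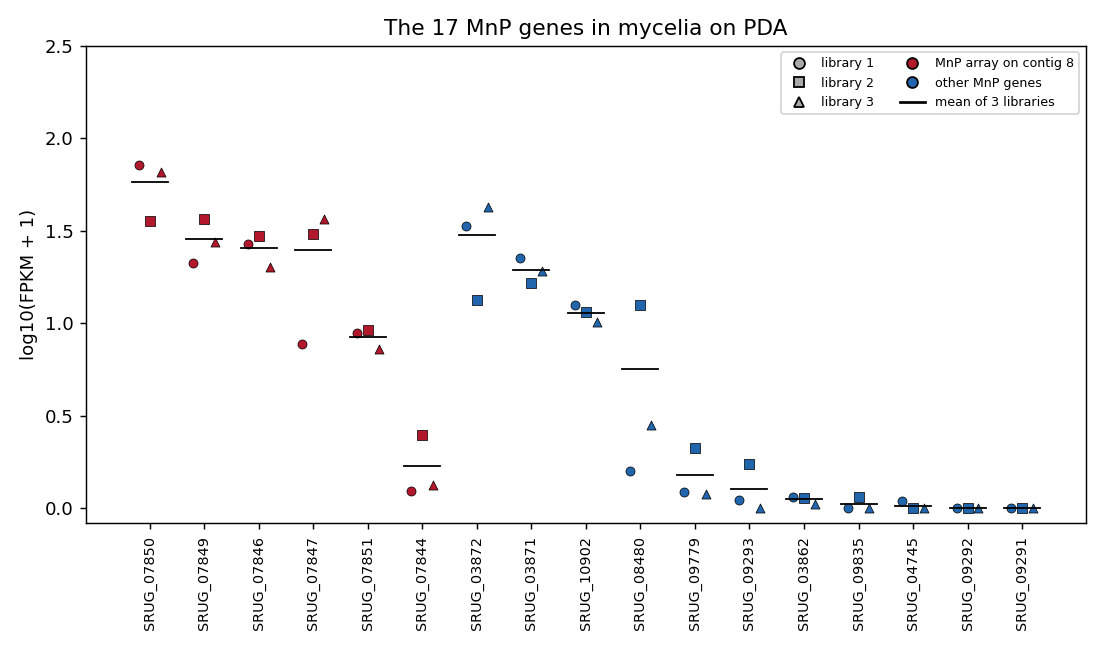
Level of the 17 MnP genes, as log10(FPKM + 1), in 3 libraries of mycelia (symbols) with the mean (line); the 6 array genes are on the left and the 11 other MnP genes on the right, each ordered by mean. Of the array, 5 genes stand above 1 FPKM in every library. Of the other genes, 4 have a mean of at least 1 FPKM, but 1 of these, SRUG_08480, has 0.594 FPKM in library 1.

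The gene nearest to each copy over the 3 libraries was sought among genes averaging at least 100 counts, by the root mean square difference of the centred log2 CPM. Near matches were common for 4 of the 5 copies, with 191 genes within 0.1 of SRUG_07846, 557 of SRUG_07849, 76 of SRUG_07850 and 424 of SRUG_07851, so the nearest gene (SRUG_06059, SRUG_02955, SRUG_02841 and SRUG_06327, in the same order) is one of many. SRUG_07847 was the exception, since no gene lay within 0.1 of it and the nearest, SRUG_11702 of contig 19, differed by 0.21. That gene had 0.656, 2.35 and 2.59 FPKM in libraries 1, 2 and 3. The distance is not scaled for spread, and SRUG_07847 had the largest CV of the 5 copies (61.5%). Its lack of near genes therefore partly restates its spread. Among the MnP genes averaging at least 50 counts, SRUG_07850 was nearest to SRUG_03871 of contig 4 (0.30), outside the array. For SRUG_07849 and SRUG_07847 the nearest were SRUG_07851 (0.35) and SRUG_07849 (0.82). The sum of the array was nearest to SRUG_08193 of contig 9, with 1276 genes within 0.1.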

How the data were processed

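RNA-seq of mycelia was analysed in 3 libraries of a single group. The authors deposited whole-number counts per gene model without normalization, and FPKM values that they computed. Each was given in 2 tables of 11750 models whose values differed in 0 cells, so 1 of each was used. The submitters' processing notes name fastp, HISAT2 and StringTie without versions. The sources used here do not state how the counter was set, whether it used strand or what it did with reads that match several genes. Of the counts from 1 to 10, 67.7% were even, and a fragment was taken to add 2 counts. The odd counts do not follow from this, and the counts may have been computed from coverage, so intervals and limits based on it are approximate. A count of 0 was read as allowing 3 fragments, or 6 counts. Contig and model numbers were read from the model names. Sequences and annotation were not used here.

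Counts were normalized by TMM in edgeR 4.0.16 (R 4.3.3), with DESeq2 1.42.0 size factors and dispersions as alternatives, and the spread over all genes was fitted with an intercept alone, after filterByExpr. Log2 levels used a pseudocount of 1 FPKM or 0.1 CPM. Comparisons between libraries were limited to genes averaging at least 50 counts. Pairs of copies were compared by an exact sign-flip permutation test over libraries. The fit of the spread over all genes was tested on simulated counts. The computations used SciPy 1.17.1, NumPy 2.4.6, pandas 2.3.3 and matplotlib 3.10.9 in Python 3.11.15. The members and lists were chosen with earlier results of these data known. The genes named are the array, the models between its members, the highest, the lowest and the adjacent model on each side, the other MnP genes and the nearest genes by profile.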

Additional observations from a re-analysis of the deposited data

How the results depend on the processing

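Of 137 alternative values, 127 kept the direction of the value reported and, for levels and shares, lay within 1 SD between libraries of it, or, for counts and spreads, within 1.5 times of it (1.1 times for the biological coefficient of variation), and 7 moved further. With 3 libraries, a median or a mean without 1 library cannot lie more than 1 SD from the full mean. A pair with a constant direction cannot reverse when a library is left out or the pseudocount changes. Agreement of those values was fixed in advance, so the tally is no measure of robustness for them. The mean of SRUG_07844, 0.692 FPKM, was 0.289 without library 2 and 0.342 as a median. Both were within the margin only because its SD, 0.700 FPKM, is larger than the mean itself. For the ratios of pairs of copies the direction alone was judged. The number of copies with a mean of at least 1 FPKM was 5, and it was 5 or 6 under each of the other thresholds, units and left-out libraries tried. The array exceeded its flanks by 0.54 with 5 models either side and by 0.70 in CPM, against 1.25 in FPKM with 10. The copies at least 2-fold from the other libraries were 1 at 3-fold and 1 with FPKM as deposited, against 2. The biological coefficient of variation was 0.245 for the median gene in DESeq2, against 0.304 in edgeR, and ranged from 0.238 to 0.345 with each library left out in turn. A further 3 of 137 reversed, all among the middle copies. With each library left out in turn, the log2 ratio of SRUG_07846 to SRUG_07847 ranged from -0.45 (without library 1) to 0.88 (without library 3), that of SRUG_07846 to SRUG_07849 from -0.37 (without library 1) to 0.0314 (without library 3), and that of SRUG_07847 to SRUG_07849 from -0.85 (without library 3) to 0.0720 (without library 1). The cause was not tested. The ratios of copies were paired within each library, but no pairing of samples was possible because the libraries form a single group. Depth limits SRUG_07844 most, with 9 to 54 counts a library.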
